A study of Mus musculus with 12 samples.

Results

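The genes described here encode the secreted and membrane-bound metalloproteases of the MMP and ADAMTS families, the ADAMTS-like proteins, and their inhibitors, the 4 TIMPs and Reck. Members were taken by gene symbol alone, as every row of the deposited expression table named Mmp, Adamts, Adamtsl, Timp or Reck with the usual numbering, which gave 41 genes of 17362. Bone marrow vessel cells of untreated B6 mice were sorted after crushing iliac bone, femur and tibia, and RNA of 4 populations was sequenced, in 3 libraries per population. The gate of the CD200-high capillaries was CD45-, CD31+, EMCN-, Sca1+ and CD200Hi. Type H vessels, known in bone for their high endomucin (EMCN), were sorted as CD45-, CD31+, Sca1+ and EMCN+. Arterial cells were gated as CD45-, CD31+, Sca1+ and CD200-, with no EMCN gate named. The population labelled sinusoidal was gated as CD45-, CD31+ and Sca1+, a gate that contains the other 3. The labels give B6 as the genotype of every group and no age, and name biological triplicates from 6 mice. Column names number the libraries of each population mouse1 to mouse3. They do not say whether a number is the same animal in every population, or whether animals were pooled.

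MMPs and ADAMTS proteases are zinc enzymes that cut the matrix outside cells. MMPs are made as inactive precursors and cut collagens, gelatin and other matrix proteins, and the membrane-type MMPs do so at the cell surface. Several ADAMTS enzymes cut the large proteoglycans aggrecan and versican, others trim procollagen, and Adamts13 cuts von Willebrand factor. TIMPs bind the active site of these enzymes, and Reck, a membrane-anchored glycoprotein, restrains several MMPs. In bone, Mmp13 is known from osteoblasts and hypertrophic cartilage cells, Mmp9 from osteoclasts and neutrophils, and Mmp8 from neutrophil granules, while Mmp14 takes part in vessel sprouting.

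Libraries held 7.33 to 21.6 M reads (M, 1e6 reads) over the listed genes. Values are log2 CPM, the log2 of counts per 1e6 reads after the authors' scaling, with 0.5 read added to each count. The sort labels were checked against their transcripts. The libraries labelled sinusoidal went against their label, since Ly6a, the Sca1 gene, stood at 8.52 to 10.54 log2 CPM in the 9 other libraries and at 3.61 to 4.87 in these. The endothelial gene Cdh5, a vascular cadherin, averaged -0.47 log2 CPM in them, while Pecam1, the CD31 gene, stood at 6.02 to 6.44. Transcripts of other gated antigens did not all follow the gates. Emcn, the endomucin gene, stood at 7.84 to 8.68 log2 CPM in CD200-high libraries, gated EMCN-, and at 8.99 to 9.04 in type H libraries, gated EMCN+. This difference did not pass (-0.76 ± 0.37 log2, SE, adjusted p = 0.221, limma). Cd200 averaged 9.81 ± 0.02 for CD200-high, 7.80 ± 0.32 for type H and 7.68 ± 0.11 for arterial libraries, gated CD200- (SD, n = 3 each), and type H minus arterial did not pass (0.12 ± 0.16, adjusted p = 0.647, limma). Ptprc, the CD45 gene, averaged 5.38 ± 0.65 for CD200-high, 3.98 ± 0.57 for type H, 7.41 ± 0.23 for arterial libraries and 6.55 ± 0.31 in those labelled sinusoidal, although all gates were CD45-. The 10 endothelial markers came to 2360 to 4550 CPM for CD200-high and 5960 to 6300 CPM for type H. They came to 1300 to 1700 CPM for arterial and 191 to 225 CPM for the libraries labelled sinusoidal. In CD200-high against the latter, 9 of the 10 passed as higher and 1 as lower (limma), where 14.1% and 14.6% of all genes did. Markers of other cells were also present. The 9 osteoblast-lineage markers summed to 78000 to 108000 CPM in CD200-high libraries, and the 9 neutrophil markers to 20100 to 32200 CPM in arterial libraries. The 7 reticular stroma and adipocyte markers summed to 4390 to 9950 CPM in arterial, 1340 to 1840 CPM in CD200-high and 854 to 2630 CPM in type H libraries. Erythroid markers, 5 genes, summed to 5260 to 11200 CPM in arterial libraries. The 8 macrophage markers reached 900 to 1840 CPM there and 1020 to 1430 CPM in type H, where Vcam1 and Mrc1 made up most. The part of these lists in the members' levels was not tested. In such bulk samples, fewer cells of a type and less RNA per cell cannot be told apart. Since it is not stated whether libraries of the same mouse number share an animal, p-values measure the spread between these libraries, which may in part be technical.

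**Figure D1:**
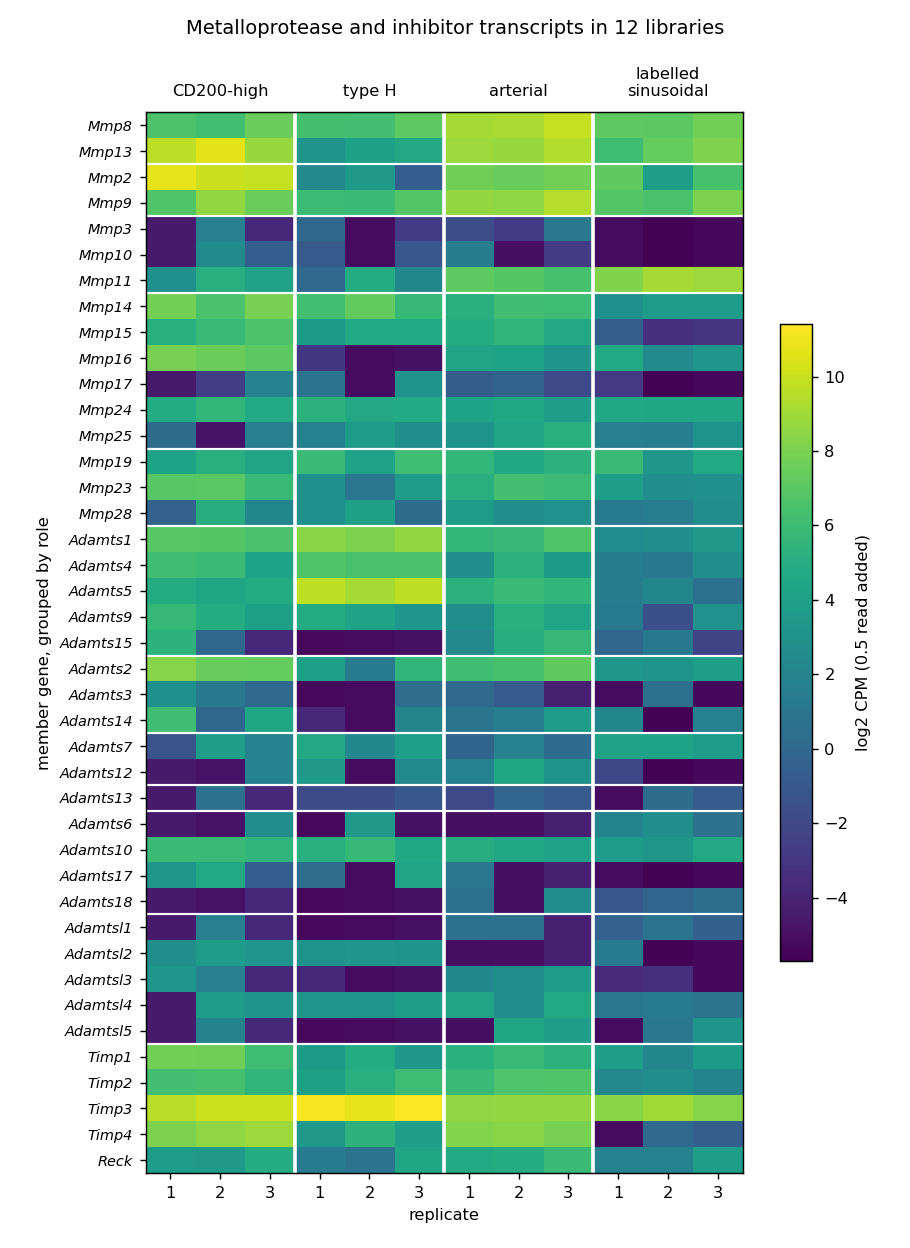
The heat map shows log2 CPM of the 41 members (rows, grouped by role, white lines between roles) in the 12 libraries (columns, replicates 1 to 3 of each population). Type H libraries are dark for Mmp16 and bright for Adamts5 and Timp3, and the libraries labelled sinusoidal are dark for Mmp15 and Timp4.

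The family differed widely between the populations. Of 40 members that passed the filter on low values, 22 (55.0%) differed among the 4 populations in limma's moderated F-test at an adjusted p under 0.05, where 37.4% of all genes did. A member passes this filter through the population where it is high. In pairwise tests 27 members (of 40) passed in at least 1 of the 6 comparisons, where 46.6% of all genes did. Adamts1, Adamts5 and Timp3 were higher in type H than in each of the 3 other populations (3 of 40 members, where 2.89% of all genes were), and Mmp2, Mmp13 and Mmp16 were lower there than in each of the others (also 3, where 2.22% of all genes were). Mmp16 was the 1 member highest in CD200-high (1.57% of all genes were), and Mmp8 the 1 highest in arterial libraries (1.0% of all genes were). The libraries labelled sinusoidal had 6 members lower than in each other population, namely Adamts1, Adamts5, Mmp14, Mmp15, Timp2 and Timp4 (4.86% of all genes were). No member was highest there (1.29% of all genes) or lowest in CD200-high (1.11%) or arterial (0.0819%) libraries.

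Counted over the family, CD200-high had 7 of 40 members higher and 3 lower than type H, where 6.66% and 6.35% of all genes were. Against arterial libraries 4 were higher and 2 lower in CD200-high, where 4.75% and 8.15% of all genes were. Without arterial replicate 3 these counts were 2 and 1, and the lower count was also 1 without arterial replicate 1 and without any 1 of the libraries labelled sinusoidal. Against the libraries labelled sinusoidal 18 were higher and 1 lower in CD200-high, where 14.1% and 14.6% of all genes were, and the lower count was 2 under the replicate block. The median difference of the members in that comparison was 2.72 log2, against -0.22 over all genes. Type H had 5 members higher and 12 lower than arterial, where 7.96% and 12.7% of all genes were, with a median of -1.43 against -0.20 over all genes. It had 11 higher and 6 lower than the libraries labelled sinusoidal, where 13.9% and 14.6% of all genes were. Arterial libraries had 12 members higher and 0 lower than those labelled sinusoidal, where 8.09% and 2.14% of all genes were. At an unadjusted p under 0.05, 2 members were lower in arterial libraries, and voom weights called 1. The higher count was 7 without arterial replicate 2 and 7 without arterial replicate 3. The 12 calls are Adamtsl3, Mmp8, Mmp9, Mmp14, Mmp15, Mmp23, Adamts1, Adamts2, Adamts5 and 3 of the 4 TIMPs, all but Timp3.

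**Figure D2:**
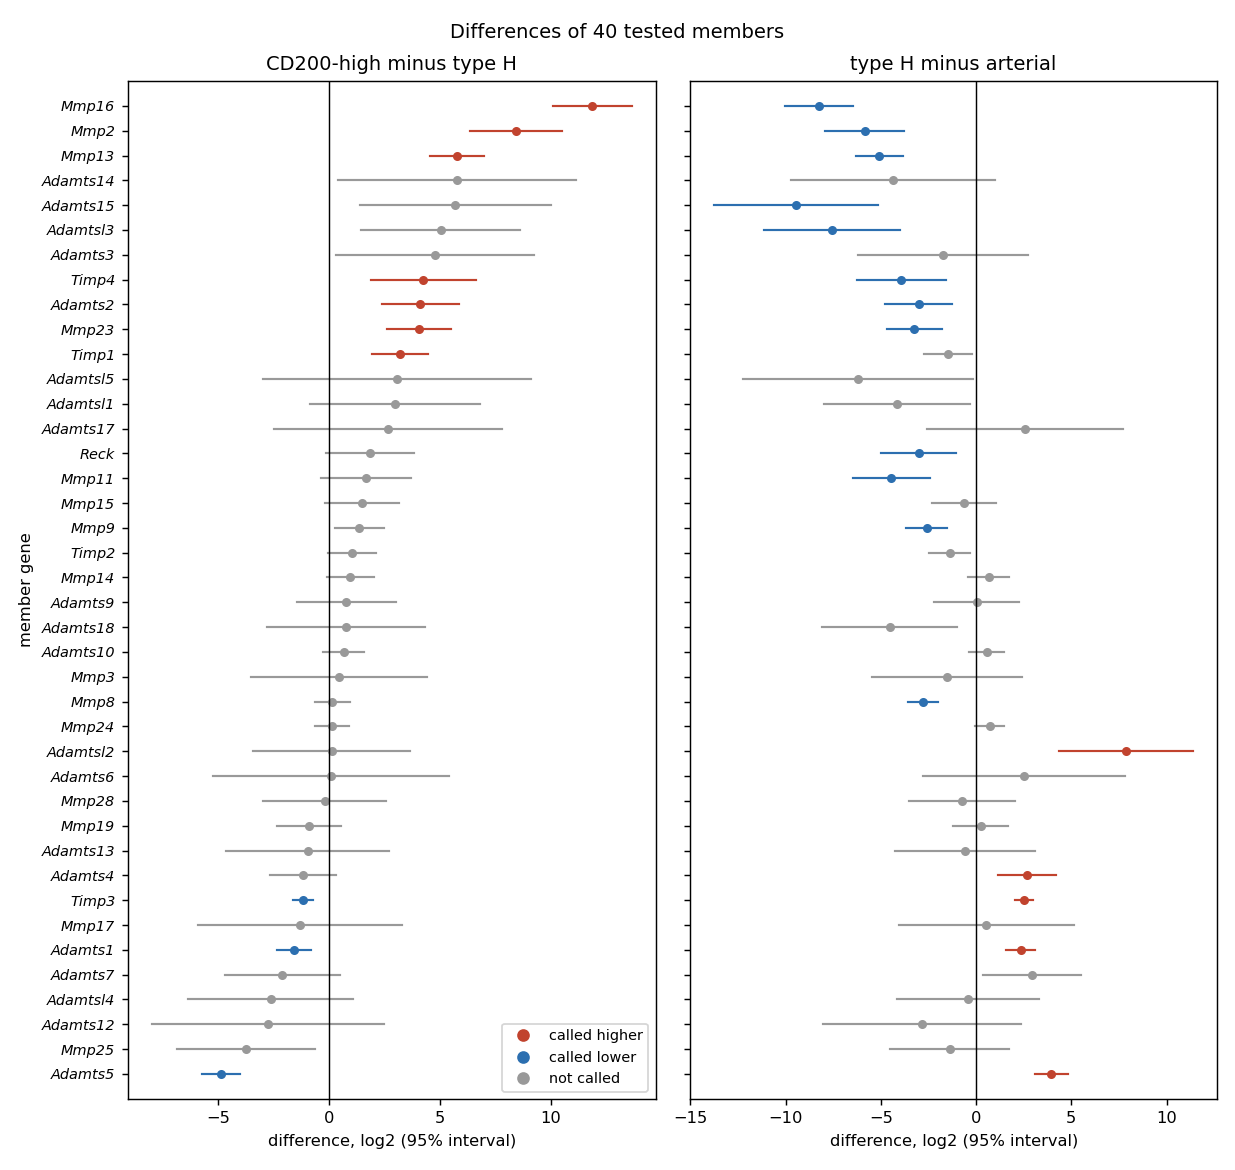
Differences in log2 with 95% intervals of the 40 tested members are plotted for CD200-high minus type H (left) and type H minus arterial (right), ordered by the left panel. Red marks members called higher, blue called lower and grey not called, with 7 red and 3 blue on the left and 5 red and 12 blue on the right.

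Start regions are shown for Adamts1, Timp3, Mmp13 and Mmp8, since these 4 were called highest or lowest in type H or arterial libraries and have an entry in the RefSeq promoter table. That table matched 29 of the 41 members, and Adamts5, Mmp2 and Mmp16 are named only. Each window runs from 250 bases before to 50 bases after the gene's start, 5′ to 3′ on the gene's strand, in build GRCm38.p6. The windows lie at chr16:85803064-85803363 on the minus strand for Adamts1, chr10:86300162-86300461 on the plus strand for Timp3, chr9:7272264-7272563 on the plus strand for Mmp13 and chr9:7558179-7558478 on the plus strand for Mmp8. Capitals mark matches on either strand to the AP-1 motif TGANTCA, the RUNX motif TGTGGT, the GC box GGGCGG or the ETS motif CCGGAA.
Adamts1: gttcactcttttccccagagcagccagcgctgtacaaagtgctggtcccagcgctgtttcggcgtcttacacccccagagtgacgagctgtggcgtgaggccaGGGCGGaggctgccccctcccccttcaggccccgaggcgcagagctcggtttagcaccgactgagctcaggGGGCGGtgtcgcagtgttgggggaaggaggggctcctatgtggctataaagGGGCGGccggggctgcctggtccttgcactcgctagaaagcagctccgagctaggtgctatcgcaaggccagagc
Timp3: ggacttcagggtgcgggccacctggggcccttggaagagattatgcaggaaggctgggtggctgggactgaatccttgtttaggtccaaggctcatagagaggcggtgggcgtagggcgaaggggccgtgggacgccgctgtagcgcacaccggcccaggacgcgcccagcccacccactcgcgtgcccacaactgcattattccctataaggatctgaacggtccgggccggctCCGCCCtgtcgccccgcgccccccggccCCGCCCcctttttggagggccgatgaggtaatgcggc
Mmp13: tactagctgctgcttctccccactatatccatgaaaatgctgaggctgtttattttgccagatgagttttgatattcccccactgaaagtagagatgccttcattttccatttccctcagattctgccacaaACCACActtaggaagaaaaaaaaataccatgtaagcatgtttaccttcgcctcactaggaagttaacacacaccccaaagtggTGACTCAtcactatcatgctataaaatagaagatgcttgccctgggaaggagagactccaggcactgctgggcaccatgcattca
Mmp8: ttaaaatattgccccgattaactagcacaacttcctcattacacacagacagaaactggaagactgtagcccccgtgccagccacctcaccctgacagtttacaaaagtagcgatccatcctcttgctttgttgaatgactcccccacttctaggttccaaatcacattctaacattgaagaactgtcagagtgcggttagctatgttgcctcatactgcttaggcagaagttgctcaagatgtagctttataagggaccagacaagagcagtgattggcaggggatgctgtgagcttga
The Mmp13 window holds 1 AP-1 match, at -35 to -29 from the start, and 1 RUNX match on the other strand, at -118 to -113. AP-1 letters occurred in 7.93% of 27025 RefSeq windows of this length and RUNX letters in 16.9%. Adamts1 has 3 GC boxes and Timp3 has 2, letters found in 35.9% of windows and in 21 of the 29 member windows. The ETS letters, found in 15.2% of windows, are in 1 of the 29 member windows. No letters of the 4 motifs are in the Mmp8 window, and no matches to different motifs overlapped in the 4 windows. Adamts1 and Adamts5 lie next to each other on chromosome 16, with 0 protein-coding genes between them in RefSeq.

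Among the collagenases and gelatinases, Mmp2 and Mmp13 were lowest in type H, and Mmp8 was highest in arterial libraries, where Mmp9 also had its highest mean. Mmp2, gelatinase A, stood at 10.75, 10.02 and 9.89 log2 CPM in CD200-high and at 2.37, 3.48 and -0.56 in type H libraries. It stood at 7.70, 7.44 and 7.73 in arterial libraries and at 7.20, 3.89 and 6.44 in those labelled sinusoidal. No CD200-high library overlapped with another population, and the 3 type H libraries were the lowest of all. Mmp2 was higher in CD200-high than type H by 8.46 ± 0.95 log2 (SE, adjusted p = 0.00013, limma) and than in the libraries labelled sinusoidal by 4.38 ± 0.95 (adjusted p = 0.00503, limma). Type H was below arterial at -5.86 ± 0.95 (adjusted p = 0.0012, limma; 0.0598 with voom weights) and below the libraries labelled sinusoidal at -4.08 ± 0.95 (adjusted p = 0.00687, limma; 0.182 with voom weights). The difference between CD200-high and arterial libraries, 2.59 (95% interval 0.52 to 4.67), did not pass (adjusted p = 0.0986, limma).

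Mmp13, collagenase 3, stood at 9.71, 10.70 and 8.77 log2 CPM in CD200-high and at 3.13, 4.07 and 4.60 in type H libraries. It stood at 8.87, 8.78 and 9.42 in arterial libraries and at 6.10, 7.35 and 8.10 in those labelled sinusoidal. Every type H library lay below every other library, while CD200-high and arterial libraries overlapped. Type H was below CD200-high, with a difference of 5.79 ± 0.56 for CD200-high minus type H (adjusted p = 4.9e-05, limma), and below arterial at -5.09 ± 0.56 (adjusted p = 0.000121, limma). Against the libraries labelled sinusoidal type H was at -3.25 ± 0.56 (adjusted p = 0.00106, limma), a call that voom weights put at adjusted p = 0.0506. CD200-high and arterial libraries differed by 0.70 (95% interval -0.53 to 1.93), which did not pass (adjusted p = 0.461, limma).

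The 9 osteoblast-lineage markers, among them Bglap, Sp7 and Col1a1, were in sum lowest in type H, as Mmp2 and Mmp13 were. Between CD200-high and arterial libraries their sum was higher in CD200-high. The differences of Mmp2 (2.59 ± 0.95, adjusted p = 0.0986, limma) and Mmp13 (0.70 ± 0.56, adjusted p = 0.461, limma) had the same sign but did not pass. The summed level of these markers was 78000 to 108000 CPM for CD200-high and 161 to 877 CPM for type H. It was 6740 to 8920 CPM for arterial libraries and 4670 to 9360 CPM in those labelled sinusoidal. All 9 passed as higher in CD200-high against type H, where 6.66% of all genes did. Against arterial libraries 4 passed as higher, where 4.75% of all genes did. None of the 9 had 0 reads in any population. Their part in the differences of Mmp2 and Mmp13 was not tested.

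Mmp8, the collagenase of neutrophil granules, stood at 6.63, 6.25 and 7.46 log2 CPM in CD200-high and at 6.35, 6.32 and 7.18 in type H libraries. It stood at 9.08, 9.22 and 9.92 in arterial libraries and at 7.15, 7.06 and 7.79 in those labelled sinusoidal. The 3 arterial libraries lay above all 9 others, which overlapped among themselves. CD200-high was below arterial at -2.62 ± 0.36 (adjusted p = 0.000966, limma), type H below arterial at -2.79 ± 0.36 (adjusted p = 0.000274, limma), and arterial above the libraries labelled sinusoidal at 2.07 ± 0.36 (adjusted p = 0.00296, limma).

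Mmp9, gelatinase B, stood at 6.77, 8.61 and 7.53 log2 CPM in CD200-high and at 6.01, 5.94 and 6.83 in type H libraries. It stood at 8.61, 8.49 and 9.48 in arterial libraries and at 6.85, 6.47 and 8.02 in those labelled sinusoidal. CD200-high replicate 2 reached the arterial range, and the libraries of type H and those labelled sinusoidal overlapped. Type H was below arterial at -2.60 ± 0.50 (adjusted p = 0.00349, limma). Arterial was above the libraries labelled sinusoidal at 1.75 ± 0.50 (adjusted p = 0.0464, limma), a call lost in 9 of 19 alternatives and at adjusted p = 0.185 without arterial replicate 3.

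Mmp25, a membrane-anchored MMP known from human leukocytes, also had its highest mean in arterial libraries, but its lowest in CD200-high. It stood at 0.32, -4.85 and 1.73 log2 CPM in CD200-high and at 1.81, 3.71 and 2.84 in type H libraries. Arterial libraries had 3.17, 4.29 and 5.03, and those labelled sinusoidal 1.75, 1.63 and 3.01. CD200-high replicate 2 had 0 reads. CD200-high was below arterial at -5.10 ± 1.43 (adjusted p = 0.0371, limma), a call lost in 8 of 20 alternatives, with the highest adjusted p, 0.122, without arterial replicate 3. The 9 neutrophil markers summed to 6230 to 10900 CPM for CD200-high, 4450 to 7750 CPM for type H, 20100 to 32200 CPM for arterial libraries and 5630 to 9980 CPM in those labelled sinusoidal, with none at 0 reads. Ptprc, the CD45 gene, was likewise lower in CD200-high and in type H than in arterial libraries (-2.03 ± 0.36 and -3.44 ± 0.36, adjusted p = 0.00419 and 9.26e-05, limma). All 9 neutrophil markers passed as lower against arterial libraries in CD200-high and likewise in type H, where 8.15% and 12.7% of all genes did. In arterial libraries 8 of 9 were higher than in those labelled sinusoidal, where 8.09% of all genes were. Osteoclast markers, 5 of the 7 listed being in the table, summed to 175 to 284 CPM for CD200-high, 9.72 to 15.0 CPM for type H, 69.9 to 146 CPM for arterial libraries and 38.2 to 65.9 CPM in those labelled sinusoidal. Most of the CD200-high sum was Ctsk, cathepsin K, which averaged 7.61 ± 0.40 log2 CPM there (SD, n = 3) and differed from arterial by 1.62 ± 1.73 (adjusted p = 0.596, limma). None of the 5 passed in CD200-high against arterial, where 4.75% of all genes passed as higher and 8.15% as lower. The median difference of the 5 was -0.85. Dcstamp had 0 reads in CD200-high and Ocstamp 0 reads in type H. The part of either cell type in Mmp8, Mmp9 and Mmp25 was not tested.

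**Figure D3:**
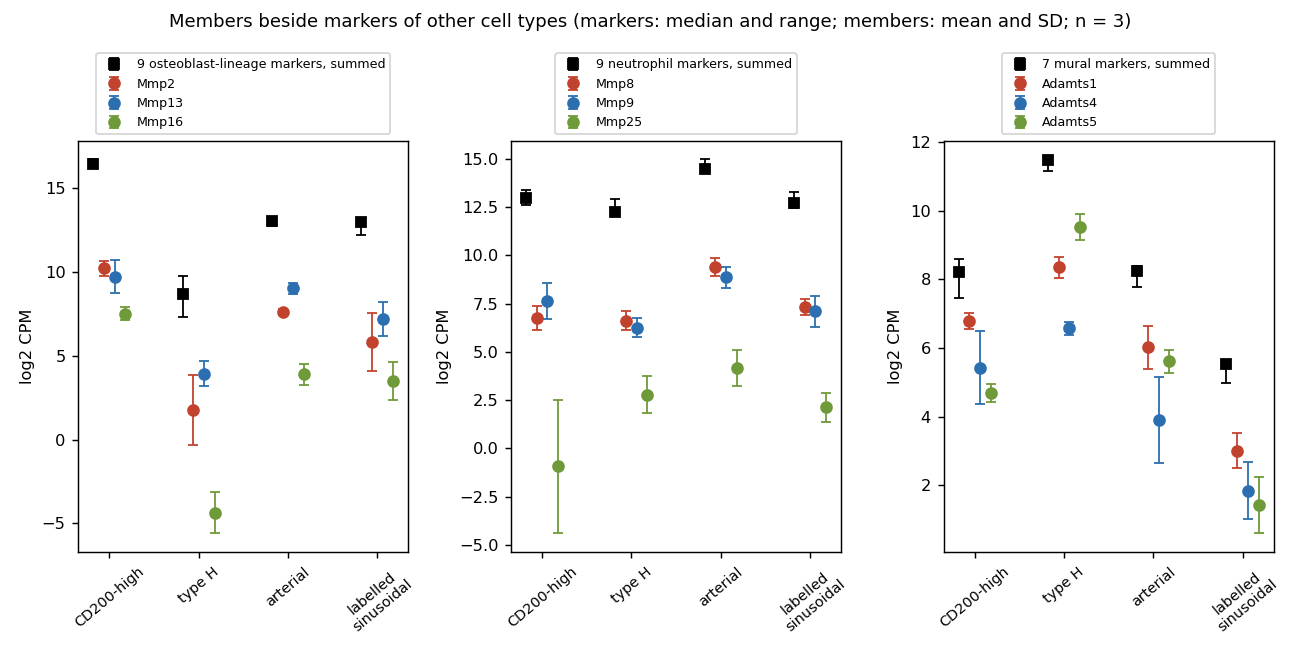
Each panel sets the levels in log2 CPM of 3 members (circles, mean and SD, n = 3) beside the summed level of markers of another cell type (squares, median and range). Osteoblast-lineage markers and Mmp2 have their lowest point in type H, neutrophil markers and Mmp8 their highest in arterial, and the mural sum, mostly Kcnj8 and Abcc9 in type H, and Adamts5 their highest in type H.

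Among the membrane-type MMPs, Mmp16 was lowest in type H, and Mmp14 and Mmp15 were lowest in the libraries labelled sinusoidal. Mmp16, a membrane-type collagen and gelatin protease also called MT3-MMP, stood at 7.90, 7.53 and 7.12 log2 CPM in CD200-high libraries. Type H libraries held 2, 0 and 0 reads. Arterial libraries stood at 4.29, 4.23 and 3.15 and those labelled sinusoidal at 4.68, 2.43 and 3.31. CD200-high libraries were above all others, and arterial libraries overlapped with those labelled sinusoidal. With pooled reads, Mmp16 in CD200-high stood 5120-fold above type H (exact 95% interval 1420 to 42300, counting error only), and limma gave adjusted p = 4.66e-06. It was higher in CD200-high than in arterial by 3.63 ± 0.81 (adjusted p = 0.013, limma; 0.0567 without arterial replicate 3) and than in the libraries labelled sinusoidal by 4.04 ± 0.81 (adjusted p = 0.00312, limma). The osteoblast-lineage sums given for Mmp2 and Mmp13 were, like Mmp16, highest in CD200-high and lowest in type H. Their part in the level of Mmp16 was not tested.

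Mmp14, or MT1-MMP, which cleaves collagen at the cell surface and activates the Mmp2 precursor, stood at 7.84, 6.52 and 7.88 log2 CPM in CD200-high and at 6.22, 7.32 and 5.78 in type H libraries. It stood at 5.09, 6.16 and 6.10 in arterial libraries and at 2.88, 3.68 and 3.73 in those labelled sinusoidal. The first 3 populations lay above the last without overlap. Differences from the libraries labelled sinusoidal were 3.98 ± 0.49 for CD200-high (adjusted p = 0.000113, limma), 3.01 ± 0.49 for type H (adjusted p = 0.000692, limma) and 2.35 ± 0.49 for arterial (adjusted p = 0.00958, limma; 0.0964 with voom weights). CD200-high exceeded arterial by 1.63 ± 0.49 (adjusted p = 0.0493, limma), but 15 of 20 alternatives lost this call, the replicate block among them (adjusted p = 0.0691). Without arterial replicate 1 its adjusted p was 0.173.

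Mmp15, or MT2-MMP, stood at 5.10, 5.82 and 6.64 log2 CPM in CD200-high and at 3.61, 4.72 and 4.72 in type H libraries. Arterial libraries stood at 4.86, 5.46 and 4.65, and those labelled sinusoidal held 12, 2 and 2 reads, or -0.52, -3.30 and -3.04 log2 CPM. Mmp15 was higher than in the libraries labelled sinusoidal by 8.14 ± 0.77 in CD200-high (adjusted p = 1.66e-05, limma), 6.64 ± 0.77 in type H (adjusted p = 5.83e-05, limma) and 7.28 ± 0.77 in arterial libraries (adjusted p = 0.000114, limma). No difference among those 3 populations passed. The endothelial marker sums given with the sort labels are also lowest in the libraries labelled sinusoidal, and their part in these differences was not tested.

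Mmp24, the membrane-type MMP called MT5-MMP, had means of 5.04 ± 0.49, 4.89 ± 0.38, 4.18 ± 0.35 and 4.40 ± 0.07 log2 CPM (SD, n = 3 each) in CD200-high, type H, arterial and sinusoid-labelled libraries. It passed in no comparison, and CD200-high minus arterial gave the interval farthest from 0, 0.10 to 1.63 (95%, adjusted p = 0.136, limma). Mmp17, a membrane-anchored member, had 0 to 129 reads a library and passed in none.

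**Figure D4:**
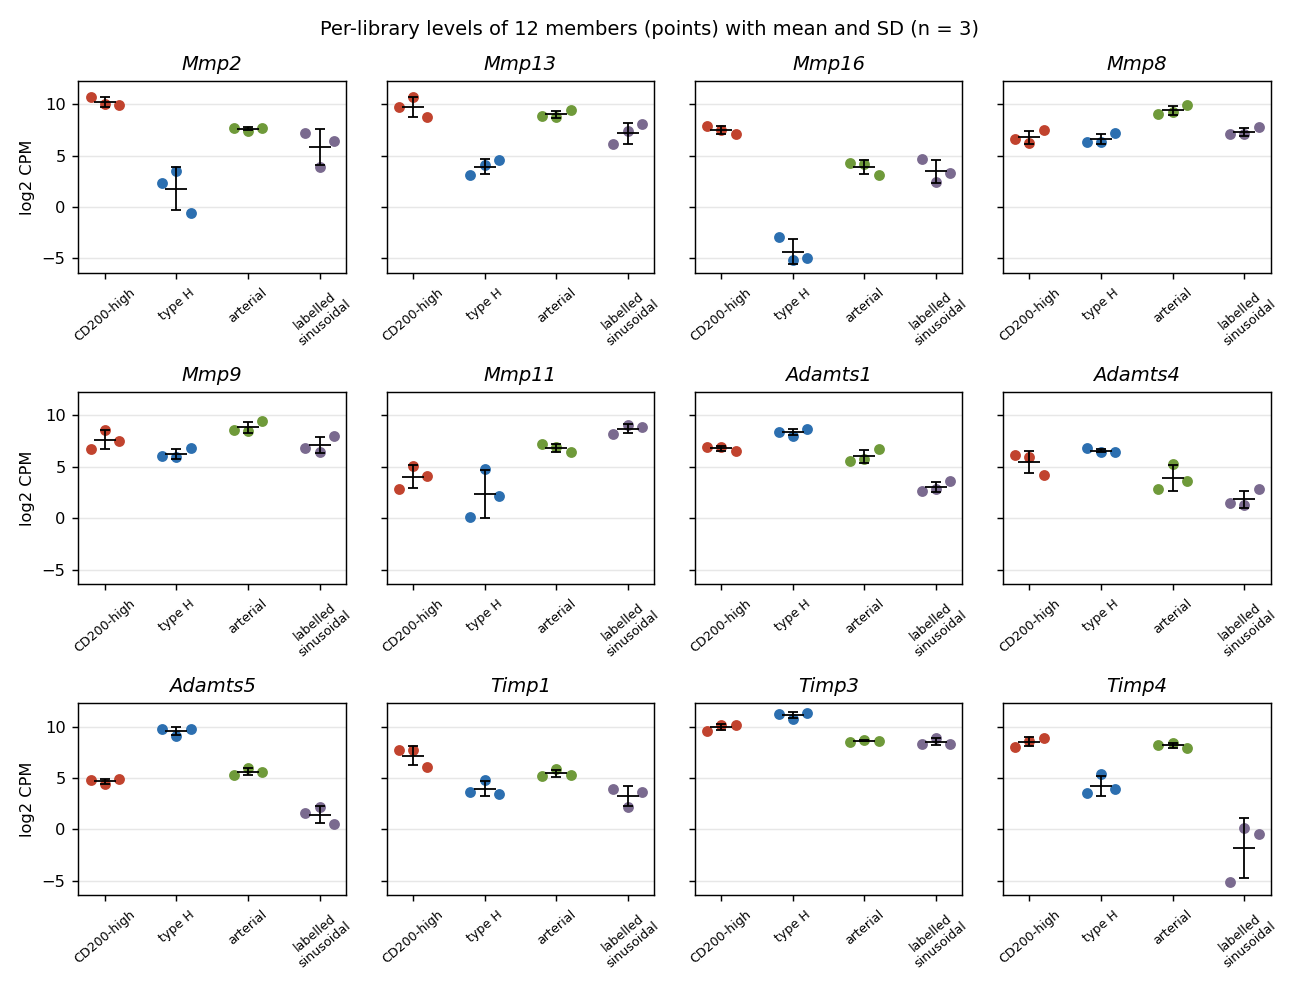
Each panel plots 1 member's log2 CPM in the 12 libraries (points, replicates 1 to 3 from left to right) with the population mean and SD (n = 3). Adamts5 in type H stands at 9.11 to 9.78, above every other library, and Mmp16 in type H at -5.17 to -2.96, below every other library.

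Mmp11 ran opposite to most members. Stromelysin-3, as its protein is called, is activated by furin inside the cell. It stood at 2.86, 5.10 and 4.13 log2 CPM in CD200-high and at 0.14, 4.80 and 2.15 in type H libraries. Arterial libraries had 7.18, 6.89 and 6.40, and those labelled sinusoidal 8.18, 9.09 and 8.88. All libraries labelled sinusoidal exceeded all others, and CD200-high and type H overlapped. CD200-high was below the libraries labelled sinusoidal at -4.69 ± 0.92 (adjusted p = 0.00281, limma), type H below them at -6.35 ± 0.92 (adjusted p = 0.000312, limma) and type H below arterial at -4.46 ± 0.92 (adjusted p = 0.00544, limma). Arterial minus sinusoid-labelled, -1.90 (95% interval -3.92 to 0.12), did not pass (adjusted p = 0.254, limma). Markers of the B lineage, 6 genes, summed to 170 to 293 CPM for CD200-high, 92.5 to 151 CPM for type H, 1160 to 2530 CPM for arterial libraries and 6050 to 7060 CPM in those labelled sinusoidal. The 5 megakaryocyte markers summed to 15.6 to 77.5, 36.6 to 70.9, 406 to 1330 and 2390 to 3270 CPM in the same order of populations. None of these markers had 0 reads in a population, and their part in the level of Mmp11 was not tested. Exons of Mmp11 share 155 bases, 5.58% of its exon length, with Chchd10 on the opposite strand.

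Mmp23, a small membrane-bound MMP, stood at 6.95, 7.02 and 5.80 log2 CPM in CD200-high and at 2.87, 0.98 and 3.74 in type H libraries. Arterial libraries had 5.05, 6.26 and 6.01, and those labelled sinusoidal 3.81, 2.82 and 2.87. CD200-high and arterial libraries overlapped, and all 6 lay above the other 6. The gene was higher in CD200-high than type H by 4.06 ± 0.66 (adjusted p = 0.00169, limma) and lower in type H than in arterial at -3.25 ± 0.66 (adjusted p = 0.0049, limma). CD200-high exceeded the libraries labelled sinusoidal by 3.42 ± 0.66 (adjusted p = 0.00247, limma) and arterial exceeded them by 2.61 ± 0.66 (adjusted p = 0.0269, limma), the last a call lost in 4 of 19 alternatives (adjusted p = 0.105 without arterial replicate 2). Mmp19 and Mmp28 passed in no comparison, with population means of 4.51 to 5.39 and of 1.89 to 3.17 log2 CPM. Of the stromelysins, Mmp3 had 0 to 49 reads a library and passed in none, and Mmp10 was the 1 member removed by the filter. The osteoblast-lineage sums given for Mmp2 and Mmp13 moved with Mmp23 between CD200-high and type H. They were also lower in type H than in the libraries labelled sinusoidal, where Mmp23 did not pass (-0.64 ± 0.66, adjusted p = 0.521, limma). Sums of arterial libraries and those labelled sinusoidal overlapped. The part of these markers in Mmp23 was not tested.

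The proteoglycan-cleaving ADAMTS genes were led by type H. Adamts5, an aggrecanase and versicanase, stood at 4.80, 4.38 and 4.85 log2 CPM in CD200-high and at 9.75, 9.11 and 9.78 in type H libraries. It stood at 5.30, 5.97 and 5.57 in arterial libraries and at 1.58, 2.15 and 0.52 in those labelled sinusoidal. The 4 populations did not overlap at all. In reads, CD200-high libraries held 195 to 300 and type H libraries 9919 to 16713. CD200-high was below type H at -4.87 ± 0.39 (adjusted p = 1.45e-05, limma) and above the libraries labelled sinusoidal at 3.26 ± 0.39 (adjusted p = 0.0001, limma; 0.0577 with voom weights). Type H was above arterial at 3.93 ± 0.39 (adjusted p = 6.73e-05, limma) and above the libraries labelled sinusoidal at 8.13 ± 0.39 (adjusted p = 7.47e-08, limma). Arterial also exceeded the libraries labelled sinusoidal, by 4.19 ± 0.39 (adjusted p = 5.11e-05, limma). CD200-high and arterial, neighbours in this order, differed by -0.93 (95% interval -1.80 to -0.07), which did not pass (adjusted p = 0.151, limma).

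Adamts1, the neighbour of Adamts5 on chromosome 16 and also a versicanase, stood at 6.97, 6.88 and 6.51 log2 CPM in CD200-high and at 8.36, 8.04 and 8.64 in type H libraries. It stood at 5.59, 5.73 and 6.74 in arterial libraries and at 2.61, 2.84 and 3.58 in those labelled sinusoidal. Type H libraries were the highest and those labelled sinusoidal the lowest, while CD200-high and arterial overlapped. CD200-high was below type H at -1.56 ± 0.34 (adjusted p = 0.0107, limma), and type H above arterial at 2.33 ± 0.34 (adjusted p = 0.000671, limma). Against the libraries labelled sinusoidal, the difference was 3.78 ± 0.34 in CD200-high (adjusted p = 1.34e-05, limma), 5.34 ± 0.34 in type H (adjusted p = 7.05e-07, limma) and 3.01 ± 0.34 in arterial libraries (adjusted p = 0.000203, limma).

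Adamts4, an aggrecanase, stood at 6.13, 5.96 and 4.20 log2 CPM in CD200-high and at 6.78, 6.48 and 6.46 in type H libraries. It stood at 2.81, 5.27 and 3.63 in arterial libraries and at 1.49, 1.24 and 2.79 in those labelled sinusoidal. Type H libraries were above all others by a margin over CD200-high replicate 1 that was smaller than the spread within CD200-high. Type H exceeded arterial by 2.67 ± 0.68 (adjusted p = 0.0169, limma), a call lost in 3 of 20 alternatives, with adjusted p = 0.0689 without arterial replicate 1. CD200-high and type H exceeded the libraries labelled sinusoidal by 3.59 ± 0.68 (adjusted p = 0.0023, limma) and 4.73 ± 0.68 (adjusted p = 0.000302, limma). CD200-high minus type H, -1.14 (95% interval -2.64 to 0.35), did not pass (adjusted p = 0.321, limma).

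Mural markers, 7 genes of pericytes and smooth muscle, summed to 177 to 389 CPM for CD200-high, 2310 to 2900 CPM for type H, 218 to 338 CPM for arterial libraries and 31.4 to 48.8 CPM in those labelled sinusoidal, where Myh11 had 0 reads. Most of the type H sum came from 2 potassium channel subunit genes, Kcnj8 at 10.59 ± 0.11 and Abcc9 at 10.06 ± 0.27 log2 CPM (SD, n = 3 each). In CD200-high against type H, 1 of the 7 passed as higher and these 2 as lower, where 6.66% and 6.35% of all genes did. In type H against arterial, the same 2 passed as higher (7.77 ± 0.58 and 5.58 ± 0.48, adjusted p = 1.04e-05 and 2.75e-05, limma). Rgs5, Pdgfrb and Acta2 passed as lower there (-6.87 ± 2.21, -2.80 ± 0.73 and -6.59 ± 1.51, adjusted p = 0.0469, 0.0179 and 0.00942, limma), and the median of the 7 was -2.80. Over all genes, 7.96% passed as higher and 12.7% as lower in that comparison. Endothelial markers too were highest in type H. Neither list's part in the type H levels of Adamts1, Adamts4 and Adamts5 was tested.

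Adamts9, a versicanase, and Adamts15, which also cuts proteoglycans, did not share this pattern. Adamts9 stood at 5.69, 4.91 and 4.03 log2 CPM in CD200-high and at 4.83, 4.13 and 3.29 in type H libraries. It stood at 2.82, 5.06 and 4.3 in arterial libraries and at 1.43, -1.54 and 2.98 in those labelled sinusoidal. CD200-high, type H and arterial libraries overlapped. Against the libraries labelled sinusoidal the difference was 3.92 ± 1.03 in CD200-high (adjusted p = 0.0144, limma; 0.051 without CD200-high replicate 1) and 3.12 ± 1.03 in type H (adjusted p = 0.0397, limma). The type H call was lost in 8 of 19 alternatives, with adjusted p = 0.0616 under the replicate block and 0.129 without sinusoid-labelled replicate 2. Adamts15 held 444, 15 and 0 reads for CD200-high, 0, 0 and 0 for type H, 87, 494 and 481 for arterial libraries and 17, 58 and 4 in those labelled sinusoidal. On the log2 scale these stood at 5.36, 0.11 and -3.76 in CD200-high, at 2.38, 4.94 and 5.68 in arterial libraries and at -0.04, 1.24 and -2.19 in those labelled sinusoidal. It was at least 169-fold lower in type H than in arterial libraries against a floor of 3 reads per library (adjusted p = 0.00554, limma), a bound of 105-fold without arterial replicate 3. The CD200-high level rested on replicate 1, and no comparison of CD200-high passed.

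Among procollagen N-proteinases, which remove the amino-terminal propeptide of fibrillar collagens, Adamts2 was the abundant member. It stood at 8.32, 7.41 and 7.38 log2 CPM in CD200-high and at 3.92, 1.31 and 5.49 in type H libraries. Arterial libraries had 6.13, 6.44 and 7.23, and those labelled sinusoidal 3.40, 3.15 and 3.88. CD200-high libraries lay above all others, and the type H values spanned those labelled sinusoidal. CD200-high exceeded type H by 4.13 ± 0.80 (adjusted p = 0.00513, limma) and the libraries labelled sinusoidal by 4.23 ± 0.80 (adjusted p = 0.00218, limma). Type H was below arterial at -3.02 ± 0.80 (adjusted p = 0.0194, limma; 0.0739 without arterial replicate 3), and arterial above the libraries labelled sinusoidal at 3.12 ± 0.80 (adjusted p = 0.0284, limma; 0.118 without arterial replicate 3). Adamts3 and Adamts14 passed in no comparison, with 0 to 81 and 0 to 757 reads a library. Col1a1 and Col1a2, the chains of type I collagen that Adamts2 trims, are among the substrate genes given further on. Osteoblast-lineage marker sums, given for Mmp2 and Mmp13, moved with Adamts2 between CD200-high and type H. They were also lower in type H than in the libraries labelled sinusoidal, where Adamts2 did not pass (0.10 ± 0.80, adjusted p = 0.946, limma). Sums of arterial libraries and those labelled sinusoidal overlapped. The part of these markers in Adamts2 was not tested.

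Among the remaining ADAMTS and ADAMTS-like genes, Adamts10, which binds fibrillin, had 167 to 967 reads a library. It averaged 5.78 ± 0.22, 5.11 ± 0.61, 4.56 ± 0.40 and 3.88 ± 0.65 log2 CPM in the order CD200-high, type H, arterial and sinusoid-labelled (SD, n = 3 each). The gene was higher in CD200-high (1.90 ± 0.41, adjusted p = 0.00523, limma) and in type H (1.23 ± 0.41, adjusted p = 0.0437, limma) than in the libraries labelled sinusoidal. Adamtsl1, Adamtsl2, Adamtsl3, Adamts17 and Adamts18 had few or 0 reads in some populations, and their fitted differences depend on the 0.5 read added. Adamtsl2, an ADAMTS-like protein of fibrillin microfibrils, held 75, 184 and 64 reads in CD200-high, 154, 169 and 135 in type H, 0 in each arterial library and 43, 0 and 0 in those labelled sinusoidal. Set against 3 reads in every arterial library, its level exceeded that bound at least 42.6-fold in CD200-high and at least 38.0-fold in type H (adjusted p = 0.00776 and 0.00506, limma). It also passed as higher in CD200-high and in type H than in the libraries labelled sinusoidal (adjusted p = 0.0111 and 0.0112, limma).

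Adamtsl3 went the other way between type H and arterial libraries, with 1, 0 and 0 reads in type H and 82, 109 and 129 in arterial libraries. CD200-high libraries held 106, 49 and 0 reads and those labelled sinusoidal 1, 2 and 0. With pooled reads arterial was 401-fold above type H (exact 95% interval 71.4 to 15900) and 159-fold above the libraries labelled sinusoidal (54.0 to 777), and limma called both (adjusted p = 0.00699 and 0.0178). Adamts17 held 110, 378 and 4 reads for CD200-high, 25, 0 and 302 for type H, 34, 0 and 0 for arterial libraries and 0 in each of those labelled sinusoidal. Its CD200-high level was at least 85.1-fold above the floor in the libraries labelled sinusoidal (adjusted p = 0.0268, limma), a bound of 37.1-fold without CD200-high replicate 2. Adamts18 and Adamtsl1 had 0 reads in type H and were lower there than in the libraries labelled sinusoidal (adjusted p = 0.0417 and 0.0449, limma), by at least 5.25-fold and 6.32-fold. These bounds fell to 3.9-fold without sinusoid-labelled replicate 3 and 4.4-fold without sinusoid-labelled replicate 2. Adamts18 also had 0 reads in every CD200-high library, where its difference from the libraries labelled sinusoidal did not pass (-4.10 ± 1.62, adjusted p = 0.0803, limma). Adamtsl1 held 0, 47 and 0 reads in CD200-high. Adamts13, the von Willebrand factor protease, had 0 to 31 reads a library and passed in no comparison. Adamts6, Adamts7, Adamts12, Adamtsl4 and Adamtsl5 also passed in none.

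The inhibitors were divided between populations. Timp3, which binds to matrix and inhibits ADAMTS4 and ADAMTS5 as well as MMPs, stood at 9.59, 10.13 and 10.11 log2 CPM in CD200-high and at 11.21, 10.75 and 11.35 in type H libraries. It stood at 8.54, 8.64 and 8.61 in arterial libraries and at 8.34, 8.93 and 8.28 in those labelled sinusoidal. Type H libraries were the highest and CD200-high the next, without overlap, while the last populations overlapped. CD200-high was below type H at -1.16 ± 0.21 (adjusted p = 0.00328, limma) and above arterial at 1.35 ± 0.21 (adjusted p = 0.0018, limma) and the libraries labelled sinusoidal at 1.42 ± 0.21 (adjusted p = 0.000386, limma). Type H was above arterial at 2.51 ± 0.21 (adjusted p = 2.41e-05, limma) and above the libraries labelled sinusoidal at 2.59 ± 0.21 (adjusted p = 3.81e-06, limma). Exons of Timp3 share 1733 bases, 21.3% of its exon length, with Syn3 on the opposite strand, and reads of the 2 genes cannot be told apart there since the strand counted is not stated. The same limit holds for all 9 members with such shared bases, among them Mmp19, Mmp28, Mmp24 (13.6% with BC029722) and Adamts9 (9.18% with A730049H05Rik).

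Timp1, which inhibits most secreted MMPs, stood at 7.74, 7.67 and 6.06 log2 CPM in CD200-high and at 3.65, 4.81 and 3.39 in type H libraries. Arterial libraries had 5.16, 5.83 and 5.32, and those labelled sinusoidal 3.91, 2.16 and 3.63. CD200-high libraries lay above all others, and type H overlapped with the libraries labelled sinusoidal. Timp1 was higher in CD200-high than type H by 3.21 ± 0.58 (adjusted p = 0.0034, limma) and than in the libraries labelled sinusoidal by 3.93 ± 0.58 (adjusted p = 0.000408, limma). Arterial exceeded the libraries labelled sinusoidal by 2.20 ± 0.58 (adjusted p = 0.0321, limma), a call lost in 6 of 19 alternatives (adjusted p = 0.122 without sinusoid-labelled replicate 2). The osteoblast-lineage sums moved with Timp1 between CD200-high and type H. They were 161 to 877 CPM in type H and 4670 to 9360 CPM in the libraries labelled sinusoidal. Between these, Timp1 did not pass (0.72 ± 0.58, adjusted p = 0.402, limma). Arterial sums, 6740 to 8920 CPM, overlapped with those of the libraries labelled sinusoidal. The part of these markers in Timp1 was not tested.

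Timp2, which also takes part in activating the Mmp2 precursor with Mmp14, stood at 6.30, 6.42 and 5.51 log2 CPM in CD200-high and at 4.01, 5.07 and 6.07 in type H libraries. Arterial libraries had 5.85, 6.70 and 6.73, and those labelled sinusoidal 2.33, 2.67 and 2.01. The first 3 populations overlapped and lay above the last. Differences from the libraries labelled sinusoidal were 3.74 ± 0.49 for CD200-high (adjusted p = 0.00018, limma), 2.71 ± 0.49 for type H (adjusted p = 0.00148, limma) and 4.09 ± 0.49 for arterial (adjusted p = 0.000302, limma).

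Timp4, an inhibitor with a narrow tissue range, stood at 8.04, 8.56 and 8.91 log2 CPM in CD200-high and at 3.51, 5.34 and 3.89 in type H libraries. Arterial libraries had 8.23, 8.38 and 7.87, and those labelled sinusoidal held 0, 27 and 14 reads. CD200-high and arterial libraries overlapped, and their 6 values lay above the other 6. Timp4 was higher in CD200-high than type H by 4.26 ± 1.08 (adjusted p = 0.0228, limma; lost in 4 of 20 alternatives, at most 0.0765 without type H replicate 1) and than in the libraries labelled sinusoidal by 10.34 ± 1.08 (adjusted p = 3.49e-05, limma). Type H was below arterial at -3.92 ± 1.08 (adjusted p = 0.0236, limma; lost in 5 of 20 alternatives, at most 0.0754 without type H replicate 1) and above the libraries labelled sinusoidal at 6.08 ± 1.08 (adjusted p = 0.00126, limma). Arterial also exceeded those libraries, with a 95% interval of the log2 difference of 7.64 to 12.36 (adjusted p = 0.000137, limma).

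Reck stood at 3.75, 3.49 and 4.88 log2 CPM in CD200-high and at 1.40, 0.81 and 4.34 in type H libraries. Arterial libraries had 4.74, 4.92 and 5.93, and those labelled sinusoidal 1.91, 1.84 and 3.81. Replicate 3 was the highest of its population in all 4, as it was for Mmp8. The 1 call, type H below arterial at -3.01 ± 0.90 (adjusted p = 0.0347, limma), was lost in 6 of 20 alternatives, with adjusted p = 0.121 without arterial replicate 3.

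To compare members with each other, CPM was divided by the length of each gene's exons in GENCODE M21, in kb, which all 41 members have. MMPs took 67.2 ± 2.3% of the summed CPM per kb of the family for CD200-high, 20.8 ± 3.0% for type H, 77.2 ± 4.2% for arterial libraries and 83.5 ± 3.3% in those labelled sinusoidal (SD, n = 3 each). TIMPs took 26.9 ± 1.7%, 50.9 ± 1.1%, 17.1 ± 4.2% and 13.6 ± 3.5%, and ADAMTS genes 5.35 ± 1.4%, 27.4 ± 2.2%, 4.14 ± 0.82% and 2.26 ± 0.21% in the same order. In type H, then, TIMP and ADAMTS transcripts made up more of the family than MMP transcripts, and in the other 3 populations MMP transcripts made up most. Timp3 alone took 45.3 ± 3.7% of the family in type H. As levels, TIMPs summed to 386 ± 75, 307 ± 46, 169 ± 24 and 59.3 ± 6.9 CPM per kb in the same order. MMPs summed to 980 ± 270, 125 ± 24, 790 ± 200 and 379 ± 95 CPM per kb. Without division by length, MMPs took 58.5%, 11%, 64.7% and 69.3%, TIMPs 30.2%, 56.5%, 23.6% and 25.2%, and ADAMTS genes 10.4%, 31.7%, 9.47% and 4.6% in the same order. No test was made of these shares and summed levels.

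Different members led in each population on this per-length scale. Mmp2 and Mmp13 led CD200-high at 366 ± 120 and 366 ± 230 CPM per kb, followed by Timp1 at 182 ± 93. Timp3 led type H at 274 ± 56 CPM per kb, followed by Adamts5 at 70.7 ± 17 and Adamts1 at 62.4 ± 13. Mmp8 led arterial libraries at 289 ± 96 CPM per kb, followed by Mmp13 at 199 ± 51 and Mmp9 at 138 ± 55. Mmp11 led the libraries labelled sinusoidal at 157 ± 48 CPM per kb and took 34.8 ± 9.2% of the family there. The whole family summed to 1450 ± 360 CPM per kb for CD200-high, 603 ± 95 for type H, 1020 ± 210 for arterial libraries and 452 ± 95 in those labelled sinusoidal (SD, n = 3 each).

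**Figure D5:**
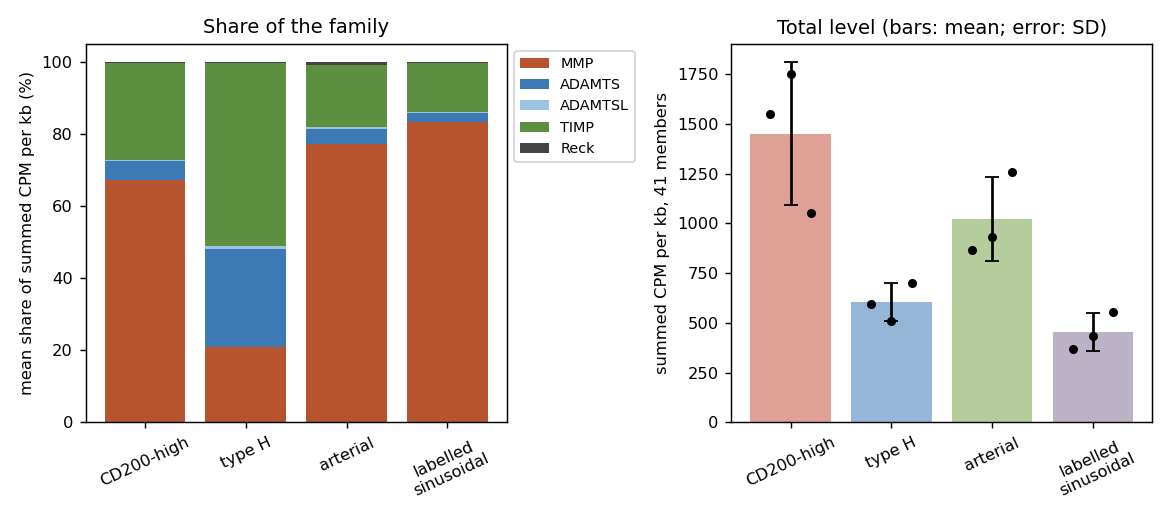
The left panel stacks the mean share (%) of each class in the family's summed CPM per kb, and the right panel gives the summed CPM per kb of all 41 members (bars, mean; error bars, SD; points, libraries, n = 3). TIMPs take 50.9% in type H, and MMPs 67.2% to 83.5% in the other 3 populations.

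Genes that act with these proteases differed in part alongside them. Of 11 genes of pro-protease activation and clearance, CD200-high had 6 higher and 0 lower against type H, where 6.66% and 6.35% of all genes were. Thbs1, thrombospondin-1, averaged 9.49 ± 0.49 log2 CPM in CD200-high and 3.70 ± 0.61 in type H (SD, n = 3 each; difference 5.80 ± 0.38, adjusted p = 3.73e-06, limma). Pcolce, which enhances procollagen C-proteinase, averaged 9.56 ± 0.66 and 4.68 ± 0.26 in these populations (difference 4.89 ± 0.40, adjusted p = 1.45e-05, limma). Pcsk5 and Pcsk6, convertases that can activate proproteins, were higher in CD200-high by 8.94 ± 1.38 (adjusted p = 0.00125, limma) and 6.89 ± 1.55 (adjusted p = 0.0122, limma). The 9 osteoblast-lineage markers were all higher in CD200-high against type H as well (78000 to 108000 CPM against 161 to 877 CPM in sum), and their part in this list's differences was not tested. The same list had 5 genes lower and 0 higher in type H than in arterial libraries, where 12.7% and 7.96% of all genes were. It had 2 higher and 0 lower in CD200-high against arterial, where 4.75% and 8.15% of all genes were. Against the libraries labelled sinusoidal, 5 were higher and 0 lower for CD200-high, where 14.1% and 14.6% of all genes were. For type H 2 were higher and 2 lower (13.9% and 14.6% of all genes), and for arterial libraries 3 and 0 (8.09% and 2.14%).

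Of 6 plasminogen-system genes, Serpine2, an inhibitor of plasminogen activators, averaged 9.25 ± 0.81 log2 CPM for CD200-high, 7.54 ± 0.66 for type H and 10.07 ± 0.60 for arterial libraries (SD, n = 3 each). It was the 1 gene of its list called in CD200-high against type H (1.71 ± 0.44, adjusted p = 0.0237, limma) and in type H against arterial (-2.54 ± 0.44, adjusted p = 0.00179, limma). Over all genes, 6.66% were higher and 6.35% lower in the former comparison, and 7.96% and 12.7% in the latter. No gene of the list passed in CD200-high against arterial, where 4.75% of all genes passed as higher and 8.15% as lower. Against the libraries labelled sinusoidal, 4 genes of the list were higher for CD200-high, 3 for type H and 3 for arterial libraries, and 0 were lower. Over all genes, 14.1%, 13.9% and 8.09% were higher and 14.6%, 14.6% and 2.14% lower in these comparisons. Plat, the tissue plasminogen activator, was higher in CD200-high, type H and arterial libraries than in those labelled sinusoidal, by 6.91 ± 1.31, 5.91 ± 1.31 and 6.02 ± 1.31 (adjusted p = 0.00223, 0.00522 and 0.0124, limma).

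ADAM sheddases, membrane proteases related to the ADAMTS genes, had 9 genes tested. Adam9 was higher in type H than in CD200-high, at 5.39 ± 0.23 log2 CPM in CD200-high and 7.47 ± 0.38 in type H (SD, n = 3 each; difference -2.08 ± 0.27, adjusted p = 0.000342, limma). It was also higher in type H than in arterial libraries, by 1.66 ± 0.27 (adjusted p = 0.00115, limma). Adam8, known from leukocytes, was lower than in arterial libraries both in CD200-high and in type H, at -2.29 ± 0.61 and -1.94 ± 0.61 (adjusted p = 0.029 and 0.041, limma). Each of the 3 comparisons with the libraries labelled sinusoidal had 4 genes higher and 0 lower, Adam9, Adam12 and Adam15 in all of them. For CD200-high, type H and arterial libraries, 14.1%, 13.9% and 8.09% of all genes were higher there and 14.6%, 14.6% and 2.14% lower.

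Substrates of the proteases, 18 genes, included 7 higher and 0 lower in CD200-high against type H, where 6.66% and 6.35% of all genes were. Against arterial libraries 4 were higher and 1 lower in CD200-high (4.75% and 8.15% of all genes). Against the libraries labelled sinusoidal 9 were higher and 0 lower in CD200-high (14.1% and 14.6% of all genes). Col1a2 averaged 14.67 ± 0.32 log2 CPM in CD200-high and 4.71 ± 0.73 in type H (SD, n = 3 each; difference 9.95 ± 0.41, adjusted p = 1.19e-07, limma). Col1a1, the other chain of type I collagen, averaged 13.97 ± 0.37 and 2.76 ± 1.59 in these populations (difference 11.20 ± 0.61, adjusted p = 1.12e-06, limma). Spp1, osteopontin, and Dcn, decorin, were higher in CD200-high by 5.40 ± 0.41 and 9.43 ± 0.96 (adjusted p = 8.89e-06 and 7.14e-05, limma). Type H had 1 substrate gene higher and 9 lower than arterial libraries, where 7.96% and 12.7% of all genes were. It had 4 higher and 7 lower than the libraries labelled sinusoidal (13.9% and 14.6% of all genes). Arterial libraries had 7 higher and 0 lower than those labelled sinusoidal (8.09% and 2.14% of all genes). Col4a1, a chain of basement membrane collagen, was higher in CD200-high, type H and arterial libraries than in those labelled sinusoidal, by 5.86 ± 0.20, 5.50 ± 0.20 and 4.79 ± 0.20 (adjusted p = 9.72e-09, 1.22e-08 and 1.41e-07, limma). Col1a1 is also one of the osteoblast-lineage markers, so this list and that one are not independent. The part of the osteoblast-lineage markers in the substrate differences was not tested.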

How the data were processed

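RNA was sequenced in 12 libraries, 3 per sorted population. The authors deposited 1 table of log2 values, and per the submitters' processing notes the tools named are featureCounts, STAR, Trimmomatic, SAMtools, deepTools and R 4.3, with no order or settings. The notes name the human build hg38 for mouse samples, so coordinates and exon lengths come from the mouse references named beside them. Undoing the log gave whole reads within 0.01 for 100% of values, so the deposited log2 values are CPM per scaled library, each count raised by 0.5 read. How the authors set that size, and the strand counted, are not given in the sources used here.

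Limma 3.58.1 in R 4.3.3 fitted population means with a mean-variance trend to all 12 libraries, with no block. Of 17362 genes, 17086 with at least 10 reads at mean depth (0.63 CPM) in at least 3 libraries were tested. P-values were adjusted by Benjamini-Hochberg over all of them within a comparison and called under 0.05. The code was tested on simulated data. Exact intervals of pooled reads and floors (3 reads) cover counting error only, while 95% intervals of differences are limma's, from the spread between libraries.

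Replicates differed beyond sampling noise, with a chi-square per degree of freedom of 50.9 to 118.6. The column names number the libraries mouse1 to mouse3 in every population. With 6 mice named, whether a number marks the same animal across populations is not settled. The fit had no block, and a replicate block was an alternative.

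Members and lists were chosen with earlier results of these data known. Values in every library are given for Adamts5, for the 20 members with the widest range of means among those called and averaging at least 4 log2 CPM in a population, and for the TIMPs and Reck. Other lists are shown by at most 4 genes, those of lowest adjusted p in a comparison, while single cell type markers and Ptprc were picked after their values were seen. From the roles listed, 11 family genes are not analysed here (Mmp1a, Mmp1b, Mmp7, Mmp12, Mmp20, Mmp21, Mmp27, Adamts8, Adamts16, Adamts19 and Adamts20).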

Additional observations from a re-analysis of the deposited data

How the results depend on the processing

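Alternatives were total-read scaling, quantile normalization, a pseudocount of 1 CPM, no filter, voom weights, the replicate block, fits of the 6 libraries compared and leaving out each library. A fit of the 9 libraries without those labelled sinusoidal, family shares without division by length, and bounds against 0 reads with 1 library left out were added after seeing the data. None of the 70 called differences of the 21 members described per library reversed in any of them, 51 kept their call in all, and 19 lost it in at least 1. Total-read scaling shifted the median of all genes by -0.31 to -0.05 log2 and quantile normalization by -0.20 to 0.33, and no called member changed direction under either. The count of members lower in arterial than in the libraries labelled sinusoidal, 0 by limma, was 1 with quantile normalization, 1 with voom weights, 3 in the fit of 6 libraries, and 0 to 1 when leaving out 1 library. Members lower in CD200-high than in the libraries labelled sinusoidal numbered 2 under the replicate block, 2 in the fit of 6 libraries and 1 to 2 when leaving out 1 library. Members lower in CD200-high than in arterial numbered 1 in the fit of 9 libraries and 1 to 3 when leaving out 1, and those higher 2 to 5. Members higher in arterial than in the libraries labelled sinusoidal numbered 7 to 13 when leaving out 1, with 7 without arterial replicate 2 or 3. Members differing among the 4 populations numbered 20 to 24 when leaving out 1. The cause of these changes was not tested, though fits with fewer libraries have less information. Same-numbered libraries deviated together weakly, with correlations of -0.04 to 0.11 over 9846 genes (1 of 18 pairs over 0.1), and share a mouse number in the column names. The replicate block changed no other call of these members than those given with Mmp14, Adamts9 and the CD200-high count. Family shares without division by exon length are given beside the main ones. Depth limits members with few reads, since 3 reads stand at -3.04 to -1.18 log2 CPM in these libraries.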
